A study of Mus musculus with 2208 samples.

Results

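The 39 genes described here copy DNA, out of 23951 genes in the deposited table. They were taken by symbol from a list of genes with known roles in replication, drawn up with earlier results of these data known, and each symbol was found once in the table. By role, 12 act in origin licensing and the replicative helicase, 16 at the fork, 5 in nucleotide supply, 4 in copying chromatin and its methylation, and 2 are cyclins of S-phase entry. Messenger RNA was measured in single cells of the mouse hippocampus, sorted for the surface proteins CD11b and CD45, which microglia carry. The CKp25 mice express p25, an activator of the kinase Cdk5, in forebrain neurons once it is induced, and neurodegeneration follows. The CK mice are the controls. Both genotypes were sampled at 0 weeks, before p25 was induced, when they were 3 months old, then 1 week and 2 weeks later, and at 6 weeks, when they were 4 months and 2 weeks old. The mouse was the replicate, with 4 mice in CKp25 at 6 weeks and 3 in each of the other 7 groups.

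DNA replication starts when Cdc6 and Cdt1 load the ring of Mcm2 to Mcm7 onto origins, a step called licensing. Cyclin E with its kinase then helps Cdc45 and the GINS complex turn the ring into a moving helicase, after which polymerases copy both strands while the clamp PCNA, loaded by the RFC complex, holds them on DNA. Most adult microglia rest outside the cell cycle and divide rarely, and in many cell types these genes are switched on together at S-phase entry by E2F transcription factors.

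A well entered as a cell when at least 1000 genes had FPKM (fragments per kilobase of transcript, scaled to the mapped fragments of the library) of 1 or more, which kept 2028 of 2208 wells, 182 to 284 per group. A gene counted as present in a cell at FPKM of 1 or more. FPKM keep no read counts, so the depth behind a value is unknown, and a gene listed at 0 may have been missed. Median genes per cell, as the mean over mice, ran from 2109 in CK at 0 weeks to 2818 in CKp25 at 2 weeks, and were 2466 ± 295 and 2486 ± 335 (SD) in CK and CKp25 at 1 week. Microglial markers were present throughout: the mean number of 10 such markers per cell was 9.72 in CKp25 at 1 week and 9.28 in CKp25 at 6 weeks. The well numbered first for each mouse stood apart, with a median of 10011 genes against 2364.5 over kept wells, and no label says what those 25 wells held. They were kept, and counts over single cells are also given without them.

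The promoters of several members hold letters of the E2F type, and 5 of those whose matches lie before the transcription start are printed here. The RefSeq promoter table (build GRCm38.p6, from 250 bases before to 50 after each start) held 32 of the 39 genes. Each sequence is the 200 bases before the start, 5′ to 3′ on the strand of the gene, with E2F-type matches and CCAAT boxes (either strand) in capitals. The stretches are chr8:75109309-75109508 on the plus strand for Mcm5, chr1:128359706-128359905 on the minus strand for Mcm6, chr5:138171884-138172083 on the minus strand for Mcm7, chr11:98907951-98908150 on the plus strand for Cdc6, and chrX:93632156-93632355 on the minus strand for Pola1.
Mcm5: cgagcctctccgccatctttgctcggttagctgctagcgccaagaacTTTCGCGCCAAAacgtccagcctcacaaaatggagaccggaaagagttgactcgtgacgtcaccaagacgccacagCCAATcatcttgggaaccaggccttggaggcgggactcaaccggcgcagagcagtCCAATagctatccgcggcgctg
Mcm6: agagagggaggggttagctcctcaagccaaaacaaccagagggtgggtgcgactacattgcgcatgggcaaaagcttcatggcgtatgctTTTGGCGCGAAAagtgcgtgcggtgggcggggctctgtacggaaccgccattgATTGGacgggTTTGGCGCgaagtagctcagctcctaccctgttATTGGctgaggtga
Mcm7: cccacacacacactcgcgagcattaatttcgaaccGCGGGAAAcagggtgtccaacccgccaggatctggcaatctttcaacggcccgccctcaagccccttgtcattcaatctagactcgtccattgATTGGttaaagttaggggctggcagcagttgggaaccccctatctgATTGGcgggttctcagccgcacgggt
Cdc6: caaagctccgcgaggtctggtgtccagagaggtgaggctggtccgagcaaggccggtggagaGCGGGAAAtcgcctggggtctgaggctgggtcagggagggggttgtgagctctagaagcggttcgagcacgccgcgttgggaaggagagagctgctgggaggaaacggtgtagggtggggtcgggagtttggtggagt
Pola1: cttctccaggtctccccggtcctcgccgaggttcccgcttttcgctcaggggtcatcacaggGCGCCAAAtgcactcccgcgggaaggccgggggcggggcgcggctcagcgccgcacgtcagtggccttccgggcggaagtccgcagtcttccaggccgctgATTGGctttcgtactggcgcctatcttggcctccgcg

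The E2F-type letters searched were TTTCGCGC, TTTCCCGC, TTTGGCGC and TTTGCCGC, on both strands, and matches may overlap each other. Of the 32 genes 12 had at least 1 match in the 300 bases (37.5%), against 4.89% of 7215 genes tested for expression and 2.6% of all 27025 genes in the promoter table. In Mcm6 the first bases of the matches lie at -110, -106 and -47 from the start site, and the first pair overlap. In Mcm5 they lie at -153 and -149 and overlap, in Mcm7 at -165 and, after the start, at 16, and in Cdc6 and Pola1 at -138. CCAAT was found in 62.5% of the 32 genes and in 43% of the tested genes, and TTTGAA, the letters of the CHR element of mitosis genes, in 12.5% and 14.2%. A match describes letters and is not a measured binding site.

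In CKp25 mice at 1 week nearly the whole set was present in more cells. In the share of cells with the gene, every CKp25 mouse lay above every CK mouse for 35 of the 39 genes at 1 week, against 12.7% of 9435 tested genes, and for 21 at 2 weeks, against 16.1%. At 6 weeks this held for 0 of the 39, against 6.16% of the tested genes. The highest mean share of the 8 groups was in CKp25 at 1 week for 35 genes, in CKp25 at 2 weeks for 3 (Rfc1, Rfc2 and Rpa1) and in CK at 1 week for 1 (Tyms). These peaks were not counted over all tested genes, and the groups differed in genes per cell. For 12 genes the 3 CKp25 mice at 1 week lay above every other mouse: Mcm5, Mcm10, Cdc6, Pola1, Pold1, Pole, Lig1, Tipin, Rrm2, Tk1, Dut and Ccne2. The same held for 1.35% of the tested genes. Those had to be present in at least 10% of cells in at least 3 mice, which leaves out Mcm10, Cdc6, Chaf1b and Ccne2. Another 12 members, Pole, Rrm2 and Dut among them, passed this filter only through the CKp25 1-week mice. Their part in the 1-week counts is no support. With 3 mice against 3, an exact permutation test of 1 gene cannot give a p below 0.1.

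**Figure D1:**
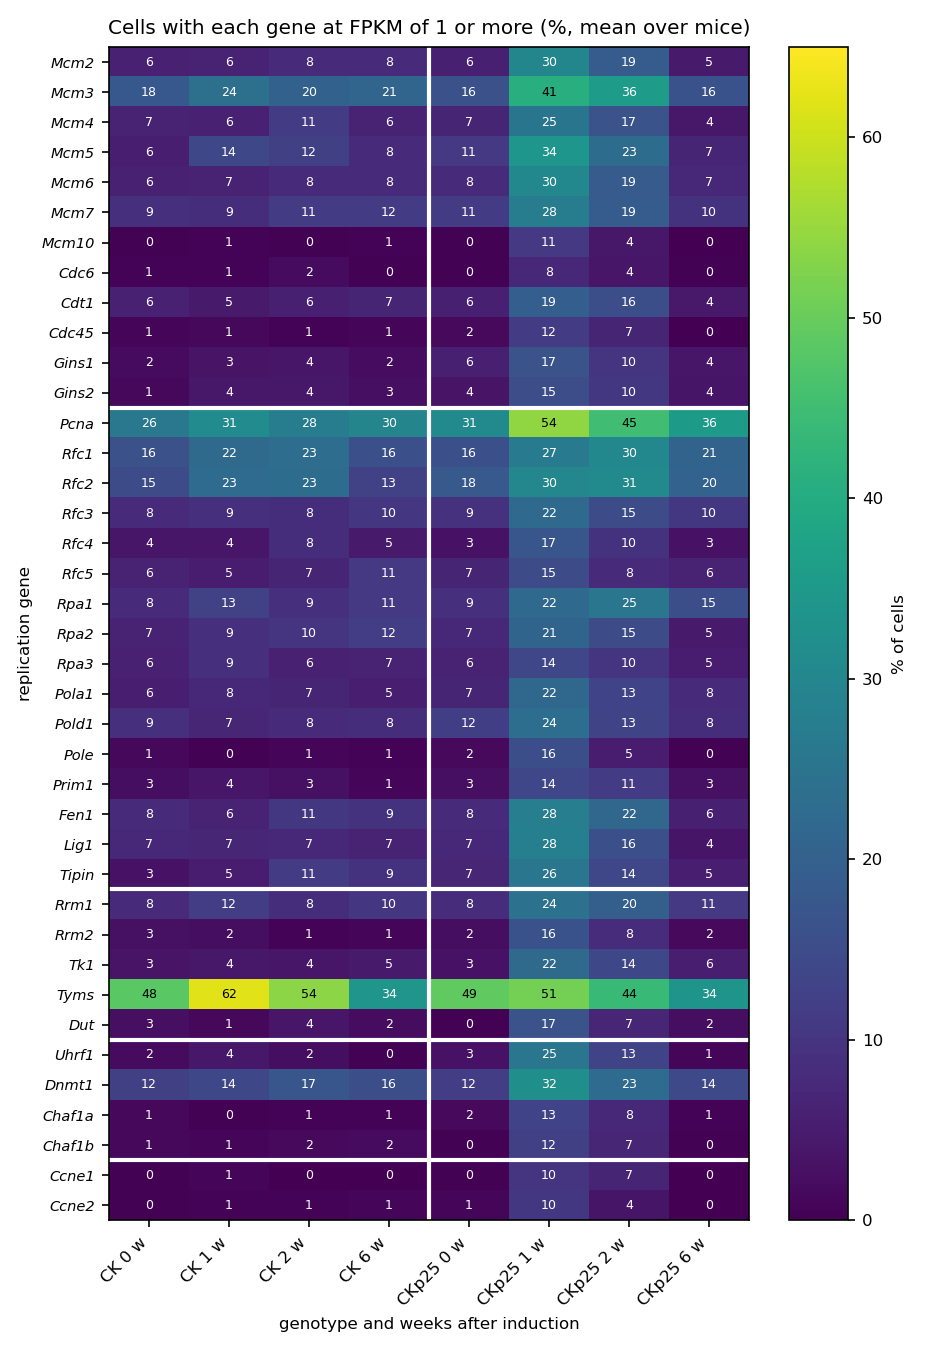
Percent of cells with each of the 39 genes (rows, in the order of their roles, with white lines between roles) in the 8 groups (columns), as the mean over mice; colour and printed number both give the percent. The CKp25 1-week column is the brightest for 35 genes, CKp25 at 2 weeks lies between it and the controls for most, and Tyms is bright in every column.

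In expression over all cells of a mouse, measured as the mean of log2(FPKM + 1) and tested with limma, 35 of the 39 genes could be tested, since Mcm10, Cdc6, Chaf1b and Ccne2 were in too few cells. At 1 week 30 were higher in CKp25 than in CK and 0 lower, against 3.9% of 9435 tested genes higher, with a median difference of 0.77 on the log2 scale against 0.06 over all tested genes. With the log2 of the mean FPKM in place of the mean log2, 10 of the 35 were called higher. Of the 35, 12 passed the filter on low values only through the CKp25 1-week mice. These were Cdt1, Cdc45, Gins1, Gins2, Rfc4, Pole, Prim1, Rrm2, Dut, Uhrf1, Chaf1a and Ccne1, and each was among the 30. Their number is no support, here or in the counts by role below. With a filter low enough to test all 39 genes, 34 were called. At 0 weeks limma called 0 members, against 0% of tested genes higher, and 1 had an unadjusted p under 0.05, as did 101 of the 9435 tested genes. A difference on this scale understates the change of a gene present in few cells.

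Among the licensing and helicase genes 10 of 10 tested were higher at 1 week. Of these, Cdt1, Cdc45, Gins1 and Gins2 passed the filter only through the CKp25 1-week mice. Mcm6, a subunit of the helicase ring, was present in 3.57%, 6.32% and 9.68% of cells of the CK mice at 1 week and in 27.9%, 31.8% and 31.2% of cells of the CKp25 mice. The groups did not overlap, and the CKp25 mice lay close together. The limma difference was 1.57 ± 0.20 (SE, adjusted p = 1.83e-07). Mcm5, another ring subunit, was present in 9.52%, 11.6% and 21.5% of CK cells and 30.2%, 37.5% and 34.4% of CKp25 cells (difference 1.46 ± 0.18, adjusted p = 8.86e-08), and CK mouse 3 was the highest control. Mcm2, Mcm7, Mcm3 and Mcm4 were higher in CKp25 than in CK by 1.34, 1.28, 1.18 and 1.13.

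Cdc6, the licensing ATPase, was rare: it was present in 0%, 1.05% and 1.07% of cells of the CK mice and 8.14%, 7.95% and 6.45% of cells of the CKp25 mice at 1 week. Mcm10, which helps activate the helicase, was present in 1.19%, 0% and 1.08% of CK cells and 8.14%, 13.6% and 10.8% of CKp25 cells. Neither gene's groups overlapped, and neither entered the limma test. Cdt1, the partner of Cdc6 in loading the ring, was higher in CKp25 than in CK by 0.71 ± 0.15 (limma adjusted p = 0.00119). The helicase cofactors Cdc45, Gins1 and Gins2 were higher by 0.65, 0.75 and 0.77.

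At the fork 12 of 16 genes were higher at 1 week. Of these, Rfc4, Pole and Prim1 passed the filter only through the CKp25 1-week mice. Pcna, the sliding clamp, had the largest difference of all 35 genes, 1.88 ± 0.39 (adjusted p = 0.00127). It was present in 25%, 43.2% and 25.8% of CK cells and in 61.6%, 60.2% and 40.9% of CKp25 cells, so that by share CKp25 mouse 3 lay below CK mouse 2. Its mean level over cells did not overlap: 38.7, 56.5 and 35.8 FPKM in the CK mice and 173, 90.8 and 114 FPKM in the CKp25 mice. On the FPKM scale, which is per length, Pcna had the highest level of the 39 genes in CKp25 at 1 week (126 ± 42.4, SD, n = 3 mice). Mcm3 was next (57.0 ± 23.6), and Cdc6 the lowest (2.02). Copies named after Pcna, Pcna-ps1 and Pcna-ps2, have no values of their own here. Reads from such copies could be counted in Pcna, so its values are uncertain to that extent.

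Pole, the catalytic subunit of the leading-strand polymerase, was present in 0%, 0% and 1.08% of CK cells and in 10.5%, 19.3% and 17.2% of CKp25 cells (difference 0.57 ± 0.07, adjusted p = 2.09e-07). Lig1, the ligase that seals Okazaki fragments, was present in 4.76%, 5.26% and 10.8% of CK cells and in 23.3%, 33.0% and 28.0% of CKp25 cells (difference 1.00 ± 0.12, adjusted p = 1.27e-07). For both genes all CKp25 mice lay well above all CK mice. Fen1, the nuclease that trims Okazaki fragments, and Tipin, a fork-protection factor, were higher in CKp25 by 1.44 ± 0.25 and 1.38 ± 0.18. The polymerase genes Pola1 and Pold1 and the primase gene Prim1 were higher by 0.65, 0.70 and 0.60. Of the clamp loader, Rfc3, Rfc4 and Rfc5 were higher by 0.83, 0.87 and 0.65. Of the single-strand binding complex RPA, Rpa2 was higher by 0.67.

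The 4 fork genes that were not called at 1 week belong to the same pair of complexes. Rfc1, the large subunit of the clamp loader, was present in 21.4%, 18.9% and 26.9% of CK cells and in 31.4%, 30.7% and 19.4% of CKp25 cells, groups that overlap (difference 0.11 ± 0.21, adjusted p = 0.839). Rfc2, Rpa1 and Rpa3 had differences of 0.38 ± 0.29, 0.46 ± 0.22 and 0.23 ± 0.17 (adjusted p = 0.537, 0.259 and 0.511). They were present in 22.4% (Rfc1), 22.8% (Rfc2), 12.6% (Rpa1) and 9.08% (Rpa3) of CK cells at 1 week. Of the called genes, Mcm5 was present in 14.2% and Rpa2 in 8.70% of CK cells. Why the 4 were not called was not tested. Against their own genotype at 0 weeks, CKp25 mice at 1 week had higher Rpa1 (0.73 ± 0.22, adjusted p = 0.0237).

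In nucleotide supply 4 of 5 genes were higher at 1 week. Of these, Rrm2 and Dut passed the filter only through the CKp25 1-week mice. Rrm2, the small subunit of ribonucleotide reductase that cells make for S phase, was present in 0%, 4.21% and 3.23% of CK cells and 16.3%, 18.2% and 15.1% of CKp25 cells (difference 1.05 ± 0.11, adjusted p = 2.92e-09). Its mean level was 0, 0.472 and 0.278 FPKM in the CK mice and 61.2, 33.0 and 21.9 FPKM in the CKp25 mice. The groups were far apart on both measures. Tk1, thymidine kinase, was higher in CKp25 than in CK by 1.27 ± 0.12 (limma adjusted p = 2.45e-10), the smallest p of the 35 genes. Rrm1, the large reductase subunit, and Dut, which removes dUTP, were higher by 0.90 and 0.69.

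Tyms, thymidylate synthase, went against the set. It was present in 58.3%, 58.9% and 68.8% of CK cells and 54.7%, 50% and 49.5% of CKp25 cells at 1 week, so that every CKp25 mouse lay below every CK mouse by share, while its expression difference was -0.05 ± 0.32 (adjusted p = 0.963). Its share was high in every group, from 33.7% in CKp25 at 6 weeks to 62.0% in CK at 1 week. Within CKp25 cells at 1 week, its mean log2 FPKM among cells with the gene was 4.13 in cells with 10 or more of the 39 genes and 3.35 in the others. A processed copy, Tyms-ps, is also in the table and was present in 0.789% to 4.11% of cells by group, and reads could be shared between the copies, so the Tyms values are uncertain.

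Of the chromatin genes 3 of 3 tested were higher at 1 week. Among these, Uhrf1 and Chaf1a passed the filter only through the CKp25 1-week mice. Uhrf1, which brings the maintenance methyltransferase to newly copied DNA, was present in 5.95%, 5.26% and 1.08% of CK cells and 19.8%, 33.0% and 23.7% of CKp25 cells (difference 1.28 ± 0.13, adjusted p = 9.59e-10). Dnmt1, that methyltransferase, was present in 14.3%, 14.7% and 12.9% of CK cells and 31.4%, 39.8% and 25.8% of CKp25 cells (difference 0.77 ± 0.18, adjusted p = 0.00715). Neither gene's groups overlapped, and Dnmt1 was common in controls where Uhrf1 was not. Chaf1a, a subunit of the histone chaperone CAF-1, was higher in CKp25 than in CK by 0.58 ± 0.08. Its partner Chaf1b, not tested by limma, was present in 1.07% of CK and 12.3% of CKp25 cells.

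Both cyclin E genes, which start S phase with Cdk2, were present in few control cells. Ccne1 was present in 0%, 2.11% and 1.08% of CK cells and 10.5%, 11.4% and 7.53% of CKp25 cells at 1 week (difference 0.57 ± 0.08, adjusted p = 2.39e-06). Ccne2 was present in 1.19%, 0% and 1.08% of CK cells and 9.30%, 11.4% and 10.8% of CKp25 cells. In CK mice at 2 weeks, Ccne1 was present in 0 of 284 cells.

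**Figure D2:**
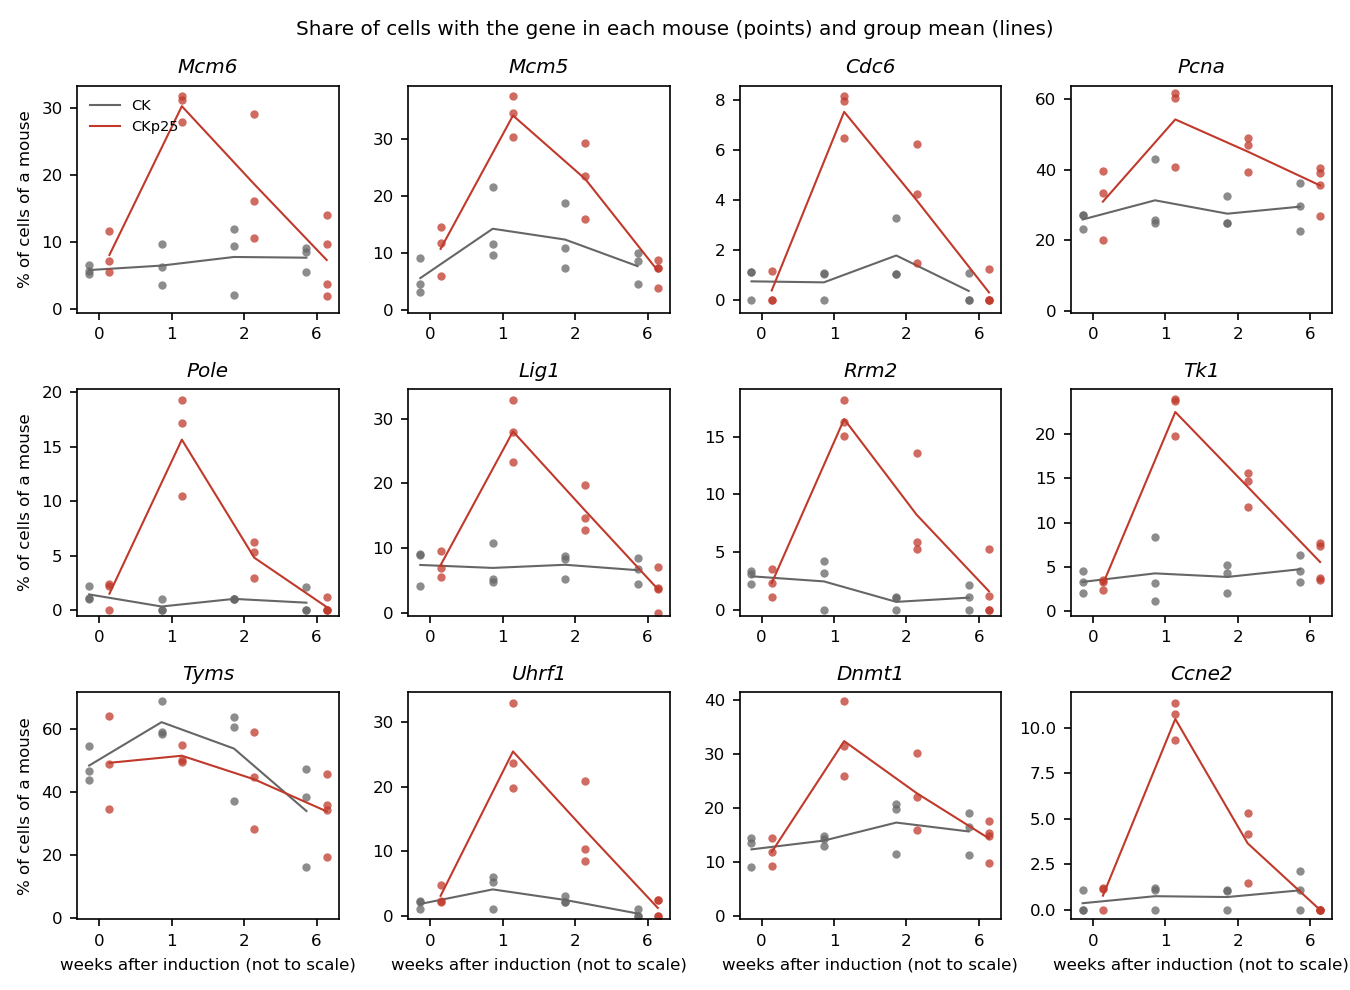
Percent of cells of each mouse (points, CK grey and CKp25 red) with 12 of the genes, by weeks after induction (spaced evenly, not to scale), with lines through the group means. For Mcm6, Pole, Rrm2 and Ccne2 the 3 CKp25 mice at 1 week lie above all controls, while Pcna overlaps by 1 mouse and Tyms lies lower.

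The increase at 1 week was compared between weeks in the same fit. CKp25 mice at 1 week had 31 of the 35 genes higher than CKp25 mice at 0 weeks and 0 lower. Over all tested genes 9.55% were higher. With the log2 of the mean FPKM, 12 members were called. The 31 include every member that passed the filter only through the CKp25 1-week mice, and their part is no support. The genotype difference itself was larger at 1 week than at 0 weeks for 16 genes, against 1.08% of tested genes. Among those called, the largest such increases were in Fen1 (1.49 ± 0.35), Mcm6 (1.45 ± 0.28) and Mcm2 (1.32 ± 0.24). With the log2 of the mean FPKM none of these named genes was called. Fen1 was also lost in 5 omissions of a mouse, and Rfc4 in 9. Of the 16, 9 were tested and called in every omission, and 1 (Uhrf1) also in every other setting. Some of the 16, such as Pole, Rrm2 and Uhrf1, passed the filter only through the CKp25 1-week mice. Between consecutive weeks in CK mice limma called 0 members and 0 of the 9435 tested genes, with 0, 1 and 2 of the 35 at an unadjusted p under 0.05 from 0 to 1, 1 to 2 and 2 to 6 weeks. Over the 9435 tested genes these unadjusted numbers were 986, 334 and 692.

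By 2 weeks fewer members differed between the genotypes. Against CK, 14 genes were higher at 2 weeks and 0 lower, against 6.14% of tested genes higher, with a median difference of 0.33, while the median over all tested genes was within 0.01 of 0. The count rested on few mice: it was 2 without CKp25 mouse 2 at 2 weeks and 6 without CK mouse 1 at 2 weeks. It was 5 with the log2 of the mean FPKM and 8 with only the groups compared in the fit. By role these were 7 of 10 licensing and helicase genes, 1 of 16 fork genes (Prim1), 3 of 5 nucleotide genes (Rrm1, Rrm2 and Tk1), 2 of 3 chromatin genes (Uhrf1 and Chaf1a) and Ccne1. Of the 14, Cdt1, Cdc45, Gins2, Prim1, Rrm2, Uhrf1, Chaf1a and Ccne1 passed the filter only through the CKp25 1-week mice. Their part in the 2-week counts is no support. Mcm5 was present in 7.29%, 18.8% and 10.9% of CK cells and 16.0%, 29.2% and 23.5% of CKp25 cells at 2 weeks. These groups overlap in CKp25 mouse 1 and CK mouse 2, and the difference was 0.77 ± 0.18 (adjusted p = 0.00272).

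Within CKp25, 16 genes were lower at 2 weeks than at 1 week and 0 higher, against 1.66% of tested genes lower. Of these, Cdc45, Pole, Rrm2, Dut, Uhrf1 and Chaf1a passed the filter only through the CKp25 1-week mice. Their part in the count is no support. The count was 9 without CKp25 mouse 2 at 1 week, 8 without CKp25 mouse 1 at 2 weeks and 10 without CKp25 mouse 3 at 2 weeks. With the log2 of the mean FPKM, or with only the groups compared in the fit, it was 2. The largest falls among them were Mcm6 (-0.88 ± 0.20), Tipin (-0.85 ± 0.18) and Mcm5 (-0.79 ± 0.18). The genotype difference was smaller at 2 weeks than at 1 week for 7 genes, against 0.424% of tested genes. These were Pole, Lig1, Tipin, Rrm2, Tk1, Dut and Uhrf1. Of the 7, Pole, Rrm2, Dut and Uhrf1 passed the filter only through the CKp25 1-week mice, so they lend the count no support. Without 1 mouse this count lay between 2 and 13: of the 2-week mice, omitting CK 3 or CKp25 3 left 2 calls, omitting CKp25 1 left 3 and omitting CKp25 2 gave 13. Of the 1-week mice, omitting CK 1, CK 3 or CKp25 2 left 4. With the log2 of the mean FPKM, or with only the groups compared in the fit, 1 was called. Tipin had the largest of these falls, -1.26 ± 0.26 (adjusted p = 0.00209), and Tipin was called whichever mouse was omitted. Pole was called in every omission that left it tested, and it could not be tested without any 1 of the CKp25 1-week mice.

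The genes differed in how much of their 1-week share remained at 2 weeks, as a description without a test. The ratio of mean shares had a median of 62.8% over the 39 genes and ran from 30.9% for Pole to 114% for Rpa1, and 4 genes lay under 50%. Those were Pole, Ccne2 (34.9%), Mcm10 (39.4%) and Dut (42.7%). Pole was present in 5.32%, 6.25% and 2.94% of cells of the CKp25 mice at 2 weeks, each below its lowest 1-week mouse. Mcm3 kept 87.3%, Pcna 83.2%, Prim1 82.9%, and Rrm1 and Cdt1 80.5% each. These ratios do not subtract the share in CK mice, which raises them for genes common in controls. Rfc4 kept 54.7% and Tipin 53.7%, but their CKp25 minus CK differences in share fell from 13.5 to 1.07 and 20.6 to 2.48 points. That difference went from 15.3 to 3.78 points for Pole, from 22.9 to 17.6 for Pcna and from 12.5 to 11.2 for Rrm1. CKp25 mouse 2 stood above the other CKp25 mice at 2 weeks for many genes: Mcm6 was present in 10.6%, 29.2% and 16.2% of cells, and Rrm2 in 5.32%, 13.5% and 5.88%.

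At 6 weeks 0 of the 35 genes differed between the genotypes, against 4.21% of tested genes higher, and the median difference was -0.02 against -0.04 over all tested genes. Unadjusted, 1 gene had p under 0.05, Rpa2, which did not pass the threshold (limma difference -0.47 ± 0.17, adjusted p = 0.0984). Over all tested genes 1487 of 9435 had an unadjusted p under 0.05. Within CKp25, 16 genes were lower at 6 weeks than at 2 weeks and 0 higher, against 2.68% of tested genes lower. That count was 1 without CKp25 mouse 2 at 2 weeks and 9 without CKp25 mouse 3 at 6 weeks. It was 2 with genes per cell as a covariate, 6 with quantile normalization and 8 with the log2 of the mean FPKM. Among the 16 were Mcm3 (-1.28 ± 0.26), Fen1 (-1.04 ± 0.23) and Mcm5 (-0.95 ± 0.17). Of the 16, Cdt1, Cdc45, Prim1, Rrm2, Uhrf1, Chaf1a and Ccne1 passed the filter only through the CKp25 1-week mice. Their part in the count is no support. The genotype difference did not pass the threshold for a fall from 2 to 6 weeks for any member (0 of 35, against 0.0318% of tested genes), with 16 members at an unadjusted p under 0.05. For this change 528 of the 9435 tested genes were under that unadjusted level. Mcm10, Cdc45, Ccne1 and Ccne2 were present in 0 of 231 CKp25 cells at 6 weeks.

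**Figure D3:**
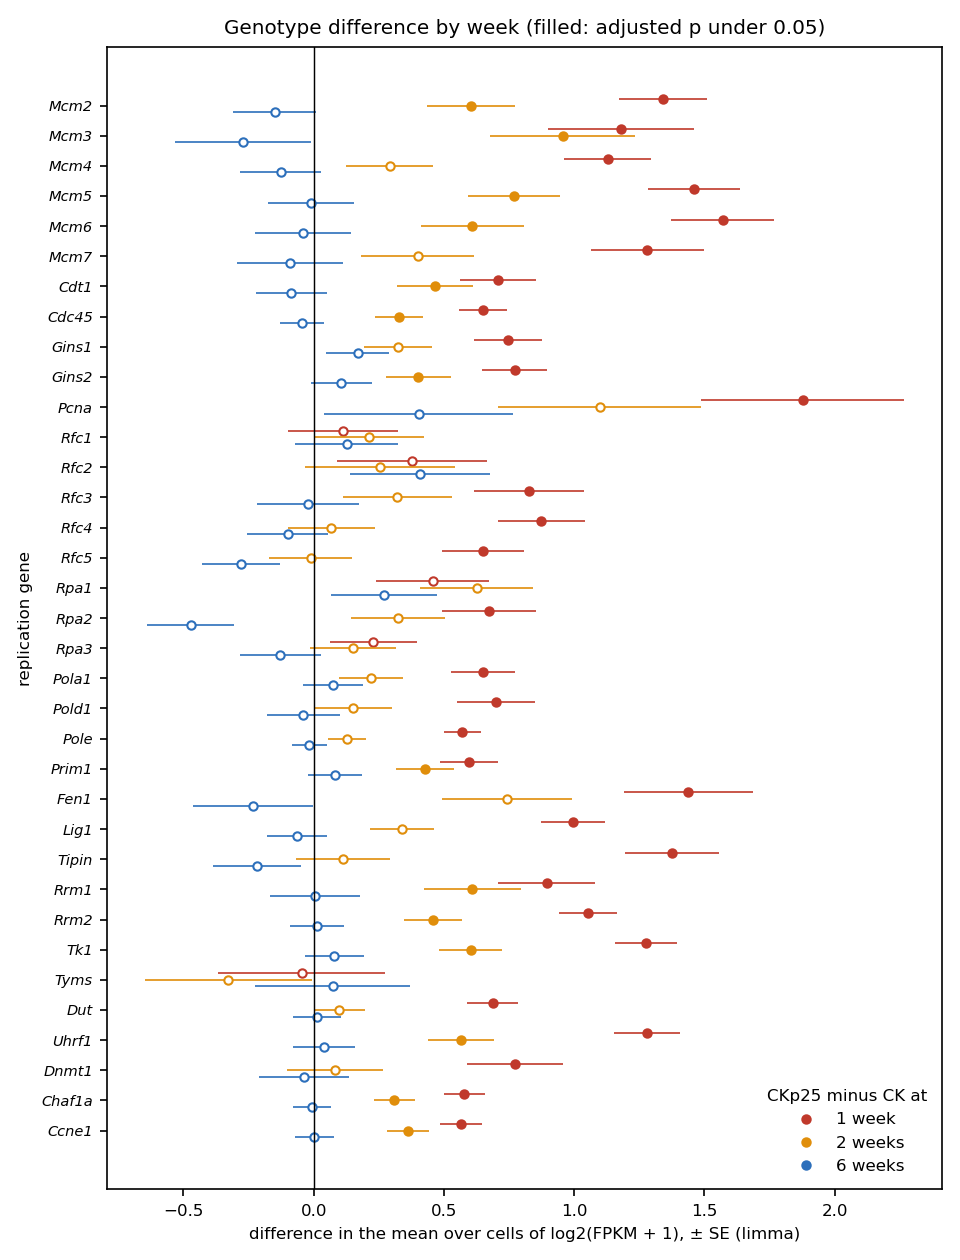
CKp25 minus CK difference in mean log2(FPKM + 1) at 1, 2 and 6 weeks for the 35 tested genes, with the limma standard error; filled points had an adjusted p under 0.05. The 1-week points lie right of 0 for all genes but Tyms and reach 1.88 for Pcna, the 2-week points lie mostly between them and 0, and no 6-week point is filled.

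The level was also taken among cells with the gene, as the mean log2 FPKM over mice with at least 5 such cells. At 1 week Mcm5 was at 3.63 ± 0.17 in CK and 5.83 ± 0.31 in CKp25 (SD, 3 mice each), and Pcna at 6.27 ± 0.19 and 7.13 ± 0.48. Uhrf1 was at 2.67 ± 0.26 in 2 CK mice and 5.48 ± 0.07 in 3 CKp25 mice. Other genes had near-equal levels where present: Dnmt1 was at 4.20 ± 0.65 and 4.17 ± 0.20, and Cdt1 at 4.95 ± 0.24 (2 mice) and 4.96 ± 0.67. The mean shares of cells with the gene in CK and CKp25 were 14% and 32.3% for Dnmt1 and 4.74% and 19.3% for Cdt1. No test was run on these levels.

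Some cells held many of the replication genes at once. In CKp25 at 1 week, 92 of 267 cells had 10 or more of the 39 genes, with 31.4%, 40.9% and 31.2% in the 3 mice (34.5% ± 5.56, SD). CK mice at 1 week had 1.19%, 1.05% and 3.23% (1.82% ± 1.22). At 2 weeks CKp25 mice had 12.8%, 26.0% and 20.6%, below every 1-week CKp25 mouse, and CK mice 0%, 5.21% and 8.70%. At 6 weeks CKp25 mice had 1.54% ± 1.07, and the groups other than CKp25 at 1 and 2 weeks lay between 1.54% and 5.08%. Without the first wells the CKp25 means were 33.8% ± 5.61 at 1 week and 19.2% ± 6.18 at 2 weeks. Elsewhere first wells made up a larger part of these cells: 3 of 6 in CK at 0 weeks, 2 of 5 in CK at 1 week and 3 of 4 in CKp25 at 6 weeks. The share with 10 or more rises with the shares of the single genes and does not by itself show joint presence. No expected count from the single shares was worked out. Cells with 15 or more made up 22.5% ± 2.31 in CKp25 and 1.07% ± 1.08 in CK at 1 week. The median cell of CKp25 at 1 week held 5 of the genes, and that of CK at 1 week 3.

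**Figure D4:**
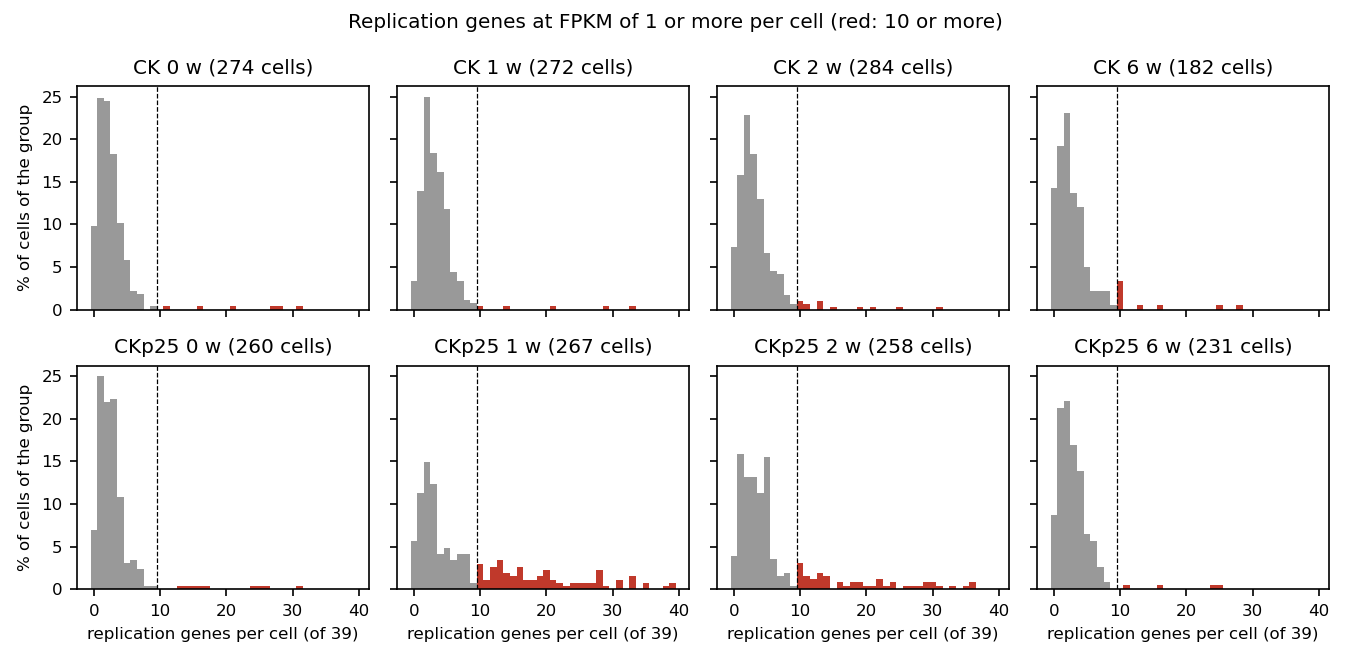
Histograms of the number of the 39 genes present per cell in each group (percent of the group's cells, CK above and CKp25 below, weeks from left to right), red from 10 genes on. A long tail to the right is seen in CKp25 at 1 week (34.5% of cells in red, as the mean over mice) and 2 weeks (19.8%), reaching 39 genes at 1 week.

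Cells with 10 or more of the genes also held more genes of all kinds. Their median was 3441.5 genes in CKp25 at 1 week, against 2175 in the other cells of that group, so cells of like gene number were compared, a choice made after the data were seen. Among wells with 2000 to 3000 genes, 31 of 121 CKp25 cells and 3 of 187 CK cells at 1 week had 10 or more (25.9% ± 11 and 1.56% ± 1.45 over mice). At 2 weeks these were 13 of 102 and 4 of 172 (12.4% ± 10.5 and 2.42% ± 4.20).

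Genes of the helicase ring were found together in some cells. At least 4 of its 6 subunit genes were found together in 68 of 267 CKp25 cells at 1 week (25.5%) and in 35 of 258 at 2 weeks (13.6%). In the other groups the share lay between 1.3% in CKp25 at 6 weeks and 3.85% in CK at 6 weeks. All 6 were found in 22 cells of CKp25 at 1 week and in 2 of CK at 1 week. Without first wells, at least 4 were found in 65 of 264 cells (24.6%) at 1 week and 33 of 255 (12.9%) at 2 weeks, and all 6 in 19 cells of CKp25 and 0 of CK at 1 week.

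Genes differed in how often they came with many others. In CKp25 at 1 week, all 20 cells with Cdc6 and all 28 cells with Ccne2 held 10 or more of the other 38 genes, as did 43 of 44 cells with Rrm2 and 34 of 37 with Prim1. The share was lower for the more common genes, with 78 of 144 cells with Pcna (54.2%), 70 of 109 with Mcm3 (64.2%) and 59 of 137 with Tyms (43.1%), but also for Rpa3, in as few cells as Prim1 (24 of 37, 64.9%). Without first wells the counts were 17 of 17 for Cdc6, 25 of 25 for Ccne2, 40 of 41 for Rrm2, 31 of 34 for Prim1, 75 of 141 for Pcna and 21 of 34 for Rpa3. Of 123 cells without Pcna, 8 had 10 or more of the others. These counts describe pooled cells of 3 mice, and the number of genes per cell moves with them.

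Among the 92 cells, those with at least 5 mitosis genes differed in which replication genes they held. At least 5 of 14 mitosis markers (such as Top2a, Ccnb1 and Cdk1) were present in 42 of the 92 cells, 0 in 11, and 1 to 4 in 39. At 2 weeks the same held for 14 of 51 cells and in CK mice at 2 weeks for 0 of 13. The 42 cells held a median of 20 replication genes and the other 50 cells 15.5, but 16 of those 50 held 20 or more, and the most was 35.

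Gene by gene, 31 of the 39 were more frequent in the 42 cells and 8 less frequent. Without first wells, 39 cells had 5 or more markers, 10 of the 39 genes were less frequent in them, and the order changed for 2 genes at 1 week and 6 at 2 weeks. Tk1 was present in 38 of the 42 cells and 12 of the 50, Rrm2 in 34 and 9, Rrm1 in 35 and 18, and Ccne1 in 19 and 6. The order was the other way for Mcm3 (30 of 42 and 45 of 50), Mcm4 (21 and 34) and Mcm6 (26 and 38). Of these 92 cells, most with Tk1 or Rrm2 thus held 5 or more mitosis markers, while these 3 ring subunits were more frequent in cells with fewer. Without first wells Tk1 was in 89.7% and 24%, Rrm2 in 79.5% and 18%, and Mcm4 in 46.2% and 68% of the cells. At 2 weeks Tk1 was present in 12 of 14 and 9 of 37 cells, Rrm2 in 13 and 6, and Mcm6 in 8 and 28, in the same directions, while Mcm3 was present in 13 of 14 and 34 of 37, an order that changed without first wells (11 of 12 and 34 of 37). This split was chosen after the values were seen and has no test, and the 42 cells had more genes of all kinds (median 4077 against 2963.5, and 3745 without first wells).

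**Figure D5:**
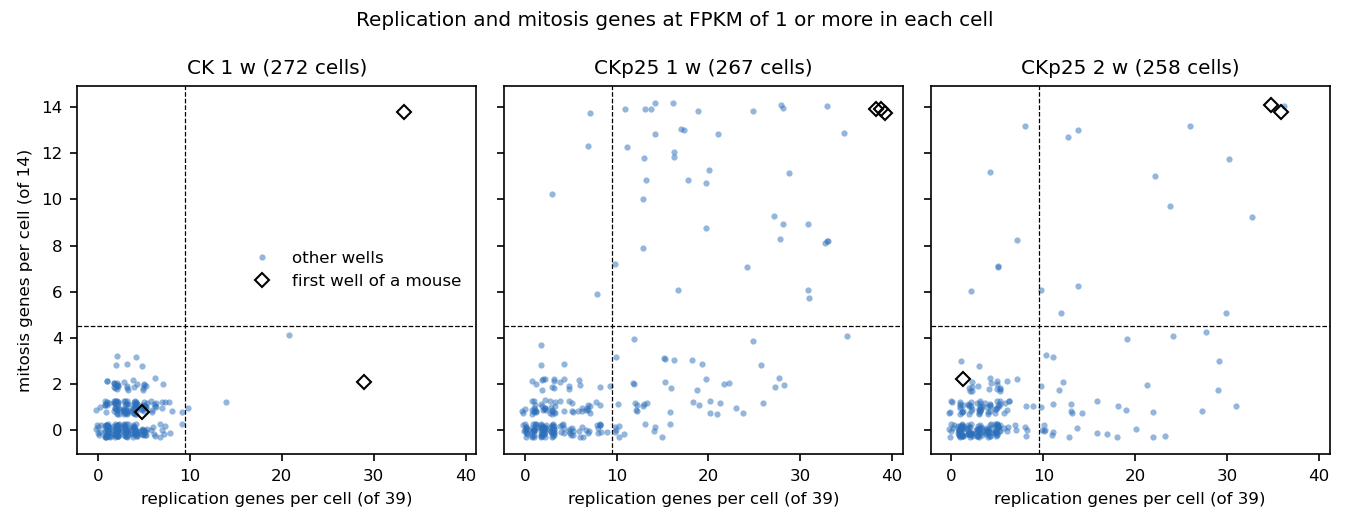
Number of the 39 replication genes (horizontal) and of 14 mitosis genes (vertical) present in each cell of CK at 1 week, CKp25 at 1 week and CKp25 at 2 weeks, with small random offsets; open diamonds are first wells. In CKp25 at 1 week, 42 cells lie in the upper right and 50 in the lower right field, and the 3 first wells sit in the upper corner.

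The cells with many replication genes carried microglial markers. Of the 92 cells, 92 had P2ry12, Tmem119, Cx3cr1, Csf1r, Fcrls, Siglech and Olfml3, 90 had Gpr34 and 79 had Sall1. Among them 2 cells had at least 3 of 6 monocyte markers and 2 had at least 3 of 6 border macrophage markers. Of the monocyte list, Ccr2 was in 7 of the 92 cells, Plac8, Chil3 and F13a1 in 2 each, Ly6c2 in 1 and Vcan in 0. In the other 175 cells of the group Ccr2 was in 11, F13a1 in 2, Vcan in 3, and Plac8, Chil3 and Ly6c2 in 0. Of the T-cell genes Cd3d was in 4 cells, Cd3g in 1 and Cd3e in 0, and the neutrophil genes S100a8 and S100a9 were in 0. Some markers of other types were found in more cells: Cxcr2, from the neutrophil list, in 48 of 92 and 79 of the other 175, Mag, an oligodendrocyte marker, in 23 and 23 (25% and 13.1%), and Cd79b, a B-cell marker, in 21 and 14 (22.8% and 8.0%). Without first wells 89 cells remained, with Ccr2 in 5, Plac8 in 0, Cxcr2 in 45, Mag in 20 and Cd79b in 18. Over the 12 lists of other cell types, the mean number of markers per cell in the 92 cells lay between 0.0217 (erythroid) and 0.522 (neutrophil). By mouse, monocyte markers per cell ran from 0.0682 to 0.163 in CKp25 and from 0.0833 to 0.232 in CK at 1 week. At 2 weeks they ran from 0.24 to 0.279 in CKp25 and from 0.0417 to 0.196 in CK, without overlap. The part of other cell types in the result was not tested.

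Other replication genes, from a list of 58 that does not overlap the 39, gave fewer calls. Of these, 57 were listed and 44 were tested, and 23 were higher and 0 lower in CKp25 at 1 week (median difference 0.49), against 3.9% of tested genes higher. It was not determined which of the 44 passed the filter only through the CKp25 1-week mice. The 1-week count is therefore no independent support. At 2 weeks 6 and at 6 weeks 3 (Dna2, Rnaseh2b and Dck) of the 44 were higher and 0 lower, against 6.14% and 4.21% of tested genes higher, so that the 6-week count is near the background. Among the genes with the smallest p values at 1 week were Fbxo5 (0.80 ± 0.10) and Gmnn (1.05 ± 0.13), which encodes geminin, the inhibitor of Cdt1. Others among them were Hells (0.62), Chtf18 (0.48), Clspn (0.46) and the histone chaperone gene Nasp (0.97). The 5 tested genes of the origin recognition complex, Orc2 to Orc6, had differences between -0.36 and 0.48, and 0 of the 5 passed the threshold.

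Several members overlap a gene on the opposite strand, and no strand setting is given for the counting, so reads in the overlaps cannot be told apart. These include Mcm7 with Cops6 and Ap4m1, Fen1 with Tmem258, Rfc4 with Eif4a2, Rfc2 with Lat2, Rfc5 with Wsb2, Gins2 with Gse1, Chaf1a with Ubxn6, Tk1 with Afmid and Ccne2 with Ints8. Of the partners tested, Ints8 was called at 1 week (0.41 ± 0.11, adjusted p = 0.0242). Cops6 (0.69 ± 0.40), Lat2 (1.27 ± 0.53), Tmem258 (0.34 ± 0.36) and Eif4a2 (-0.74 ± 0.51) were not. The values of these members are uncertain to that extent. Cdk5r1, which encodes the precursor of p25, did not pass the limma test at 1 week in the sorted cells (-0.23 ± 0.23, adjusted p = 0.66). Since p25 is made in neurons, this gene does not check the genotype of these cells.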

How the data were processed

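The deposited table holds FPKM of single-cell Smart-seq2 libraries, computed by the authors with Cufflinks 2.2 on genome build mm9, per the submitters' processing notes. The aligner's version, the annotation, the strand setting and filters are not given in the sources used here. Each column was matched to its sample by name, with 0 columns left unmatched. A well entered when 1000 genes or more reached an FPKM of 1 (2028 of 2208 wells), and doublets were not called. Per mouse, log2(FPKM + 1) was averaged across cells. Genes present in at least 10% of cells in at least 3 mice entered (9435), and limma 3.58.1 (R 4.3.3; trend and robust options) was run on the 25 mice together, with 8 group means and 17 residual degrees of freedom, 2-sided, with Benjamini-Hochberg adjustment over all tested genes and a threshold of 0.05. The fit was tested on simulated data. Shares of cells were compared by exact permutation of mice, in Python 3.11.15 with scipy 1.17.1. The labels give separate mice but not litters or sort days. Members, lists and markers were chosen with earlier results of these data known. Named genes were the 39 members, up to 8 of the second list by p, mitosis and cell type markers, and Cdk5r1. Some genes under this rule are not reported here. Alternatives are given in the closing section. Promoter letters came from RefSeq tables, and gene overlaps from a GRCm38 annotation; no coordinates were joined to the files.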

Additional observations from a re-analysis of the deposited data

Results flagged for a closer look

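Among the 39 genes' shares of cells in the 4 CKp25 mice at 6 weeks, 4 had a highest mouse whose gap to the others exceeded Dixon's 95% critical value. These were Cdc6 at 1.23%, Pole at 1.23%, Chaf1a at 2.44% and Chaf1b at 1.92% of that mouse's cells, with the gene at FPKM of 1 or more in no cell of the other mice. Each rests on 1 cell, and with the other 3 mice tied at 0 the ratio is 1 by construction, so the usual rate, by which chance flags about 1 in 20 groups, does not apply to them.

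The genotype difference in limma (CKp25 minus CK, log2 scale) was larger at 1 week than at 0 weeks, by the test of that change itself, for 16 genes. Of the helicase genes, the change was 1.32 for Mcm2, 1.08 for Mcm4, 1.27 for Mcm5, 1.45 for Mcm6 and 0.64 for Cdc45. Of the fork genes, it was 0.91 for Rfc4, 0.58 for Pole, 1.49 for Fen1, 1.0 for Lig1 and 1.1 for Tipin. It was 1.05 for Rrm2, 1.25 for Tk1, 0.75 for Dut, 1.27 for Uhrf1, 0.59 for Chaf1a and 0.57 for Ccne1. Of the 16, Cdc45, Rfc4, Pole, Rrm2, Dut, Uhrf1, Chaf1a and Ccne1 passed the filter only through the CKp25 1-week mice.

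From 1 to 2 weeks the genotype difference changed, by the same kind of test, for 7 genes. The change was -0.44 for Pole, -0.66 for Lig1, -1.26 for Tipin, -0.6 for Rrm2, -0.67 for Tk1, -0.59 for Dut and -0.71 for Uhrf1. Of these, Pole, Rrm2, Dut and Uhrf1 passed the filter only through the CKp25 1-week mice.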

How the results depend on the processing

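No limma difference called for a member changed direction under any setting in which it was tested. Untested orders did: without first wells, 2 genes at 1 week and 6 at 2 weeks changed order between cells with more and fewer mitosis markers. With the log2 of the mean FPKM in place of the mean log2, the counts of members called were 10 at 1 week, 5 at 2 weeks, 1 at 6 weeks, 12 from 0 to 1 week, 2 lower from 1 to 2 weeks, 8 lower from 2 to 6 weeks, and 1 with a falling genotype difference from 1 to 2 weeks. With the filter at 20% of cells, which left 17 members tested, they were 13 at 1 week, 6 at 2 weeks, 0 at 6 weeks, 14 from 0 to 1 week, 7 lower from 1 to 2 weeks, 8 lower from 2 to 6 weeks and 4 falling differences. With only the groups compared, 8 were called at 2 weeks, 2 were lower from 1 to 2 weeks and 1 had a falling difference. Quantile normalization gave 6 lower from 2 to 6 weeks and 4 falling differences, a pseudocount of 0.1 gave 4 falling differences, and genes per cell as a covariate gave 2 lower from 2 to 6 weeks. The cause was not tested. The share of CKp25 cells with many members was 51.8% and 42.7% (1 and 2 weeks) at 5 or more members, 22.5% and 10.3% at 15 or more, and 25.9% and 12.4% among wells with 2000 to 3000 genes.

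Leaving out 1 mouse at a time gave 23 to 30 calls at 1 week, 2 to 17 at 2 weeks, 0 at 6 weeks, 23 to 31 from 0 to 1 week, 8 to 20 lower from 1 to 2 weeks, 1 to 19 lower from 2 to 6 weeks and 2 to 13 falling differences. Shares without overlap numbered 35 to 38 at 1 week and 21 to 28 at 2 weeks. Cells with 10 or more members made up 31.3% to 36.2% at 1 week and 16.7% to 23.3% at 2 weeks. Of the 30 genes called at 1 week, 21 were tested and called in every omission, and 3 (Mcm7, Fen1 and Uhrf1) also in every other setting. Omitting a mouse left 4 of the 30 untested at least once.

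With the mouse number as a block, the counts were 30 at 1 week, 17 at 2 weeks, 0 at 6 weeks, 32 from 0 to 1 week, 18 lower from 1 to 2 weeks, 20 lower from 2 to 6 weeks and 10 falling differences. Same-numbered mice of the genotypes correlated in their deviations between -0.119 and 0.348, and mice of different numbers between -0.34 and 0.221. At 0 weeks the same-numbered pairs (0.116 to 0.22) lay above the others (-0.171 to 0.005). The same-numbered values were not over 0.1 in every pair, and the main fit did not treat the numbers as pairs. The labels do not say whether a number marks a shared litter or sort day, so shared structure is not excluded. FPKM give no depth, so rare genes listed at 0 cannot be bounded.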
